A study of Arabidopsis thaliana with 6 samples.

Results

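The xyloglucan endotransglucosylase/hydrolase (XTH) family of Arabidopsis thaliana was followed by RNA sequencing of whole seedlings. Its members were taken as all 33 loci named XTH1 to XTH33, of 33602 gene identifiers in the deposited count files. The libraries came from athb1-1 seedlings, which carry a mutant allele of the transcription factor gene ATHB1, and from wild-type (WT) seedlings, both of the Columbia ecotype, with 3 libraries per genotype that the labels call biological triplicates. All seedlings grew for 4 days in short days of 8 h light and 16 h darkness and were collected whole, with root, hypocotyl and cotyledons, 1 h before the night ended. Stratification was for 3 days at 4 °C, and growth on agar was at 22 to 24 °C with light of 120 µmol per square metre and second. The labels also give 72 h after stratification as the age, and they do not say how many seedlings made up a library. The mutant genotype is represented by 1 allele.

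Xyloglucan is the main hemicellulose of the primary wall in dicots, where it coats and links cellulose microfibrils. XTH enzymes, of glycoside hydrolase family 16, cut a xyloglucan chain and either join the new end to another chain, which is transglucosylase activity, or release it by hydrolysis. They act in the apoplast while cells enlarge, in seedlings for example in the elongating hypocotyl, the root elongation zone and root hairs. ATHB1 belongs to class I of the homeodomain-leucine zipper (HD-Zip) factors and is known as a regulator of hypocotyl growth in short days. The comparison of athb1-1 with WT asks which transcripts differ when this factor is mutated.

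Gene counts totalled 12841376 to 13153615 per athb1-1 library and 11036314 to 11974342 per WT library. Summed over its exon bins, the ATHB1 locus had 8.57 ± 0.504 CPM, counts scaled to a common library total, in athb1-1 and 405 ± 40.5 CPM in WT (SD, n = 3 each). All 3 mutant libraries lay below all 3 WT libraries, so the labels and the targeted transcript go together. No 2 libraries of a genotype were the same within counting noise: chi-square divided by its degrees of freedom was 4.48 to 4.67 for pairs of athb1-1 libraries and 4.52 to 13.4 for pairs of WT libraries. WT replicate 2 stood apart: 10 seed storage and oleosin genes summed to 1.02 to 5.73 CPM in athb1-1, to 48.6 CPM in that library and to 7.43 and 2.13 CPM in the other WT libraries. Root and cotyledon transcripts were found in every library, and no list of hypocotyl genes was used. A list of 13 root genes summed to 2050 to 2341 CPM in athb1-1 and 2140 to 2454 CPM in WT, most of it from PYK10, and without PYK10 to 302.4 to 342.6 CPM in athb1-1 and 279.1 to 332.3 CPM in WT. PLT1, PLT2, WOX5 and ESB1 of this list were under 1 CPM in every library. Summed, 8 genes of green cotyledons came to 45070 to 52190 CPM in athb1-1 and 47580 to 57030 CPM in WT. In such bulk samples, a change in the number of cells of a type and a change in RNA per cell cannot be told apart.

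The coding stretch around the catalytic residues of the family was searched with a pattern that allows several amino acids at most positions. It accepts cysteine or asparagine for the inner aspartate and glutamine for the later glutamate. The pattern matched once in the longest coding sequence of each of the 33 genes, which does not show that the catalytic residues are kept in all. It is given here for the members on which the results turn, to show how far close copies differ. The genome and gene models are those of RefSeq for TAIR10.1, each sequence runs 5′ to 3′ on the coding strand, and capitals mark bases that differ from XTH15.
XTH15: gacgagatagactttgagtttctaggt
XTH16: gacgagatagactttgagtttctTggt
XTH11: gaTgagCtCTGTttCCagAtCTtGggA
XTH26: gaTgagatagacttCgagttCctaggA
XTH18: gaTgagatTgaTttCgagttCTtaggA
XTH19: gaTgagatTgaTttCgagtttTtGggG
XTH4: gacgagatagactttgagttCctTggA
XTH24: gaTgagatTgaTtttgagttCTtGggt
XTH30: gacgagTtagacAtAgagtttctaggG
XTH16 differed from XTH15 at 1 of the 27 bases and XTH11 at 13, the most of any member. Read as codons, XTH11 has cysteine and glutamine where XTH15 has its last aspartate and its last glutamate in the stretch. The enzyme activity of XTH11 was not tested. Over whole coding sequences XTH15 and XTH16 were 80.8% identical, whereas XTH11 had no relative closer than 58.1%. The closest pairs were XTH12 with XTH13 (89.4%) and XTH18 with XTH19 (87.6%). The longest run of identical bases between transcripts of 2 members was 68 bases, in XTH18 and XTH19.

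Several members lie close together. On chromosome 5, XTH12 and XTH13 are 1097 bases apart with 1 other protein-coding gene between them, XTH13 and XTH25 686 bases, and XTH25 and XTH22 565 bases. On chromosome 4, XTH18 and XTH19 are separated by 1500 bases, XTH24 and XTH18 by 5161 bases, and XTH23 and XTH14 by 363 bases. The sources used here do not say how reads were divided between such copies, so the values of XTH12 with XTH13 and of XTH17 to XTH20 are uncertain as to which copy the reads came from.

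XTH4, XTH15 and XTH24 stood well above the rest of the family in every library. Levels between genes were compared as CPM per kilobase of the longest transcript. Averaged over the 6 libraries they were 459 for XTH4, 459 for XTH15 and 458 for XTH24, and the order of these 3 changed from library to library. XTH4 encodes a transglucosylase of expanding organs. Its level was 477, 482 and 352 CPM per kilobase in athb1-1, against 494, 494 and 457 CPM per kilobase in WT. XTH24, first described as the meristem gene MERI5, was at 505, 423 and 375 CPM per kilobase in athb1-1, against 534, 470 and 444 CPM per kilobase in WT. In both genes the genotypes overlapped, with athb1-1 replicate 3 lowest. XTH15 had 586, 544 and 508 CPM per kilobase in athb1-1, against 340, 389 and 386 CPM per kilobase in WT, and its libraries did not overlap.

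A gap followed these genes. The lowest XTH24 library, at 375 CPM per kilobase, lay above the highest XTH7 library, at 174. XTH7 averaged 125 CPM per kilobase, XTH27 101 and XTH30 95.7, and neighbours in this order overlapped. XTH7 was at 116, 113 and 113 CPM per kilobase in athb1-1, against 111, 174 and 123 CPM per kilobase in WT, where WT replicate 2 was the highest library. XTH27, also called EXGT-A3, is known from developing leaf veins. It had 93.4, 107 and 99.2 CPM per kilobase in athb1-1 and 111, 96.8 and 96.7 CPM per kilobase in WT, and the genotypes overlapped. XTH6 (67.7) and XTH31 (33.3) followed, and each of these 2 was separated from its upper neighbour in all 6 libraries. From XTH31 through XTH16 (22.2) down to XTH3 (0.378), the ranges of all neighbouring members overlapped.

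**Figure D1:**
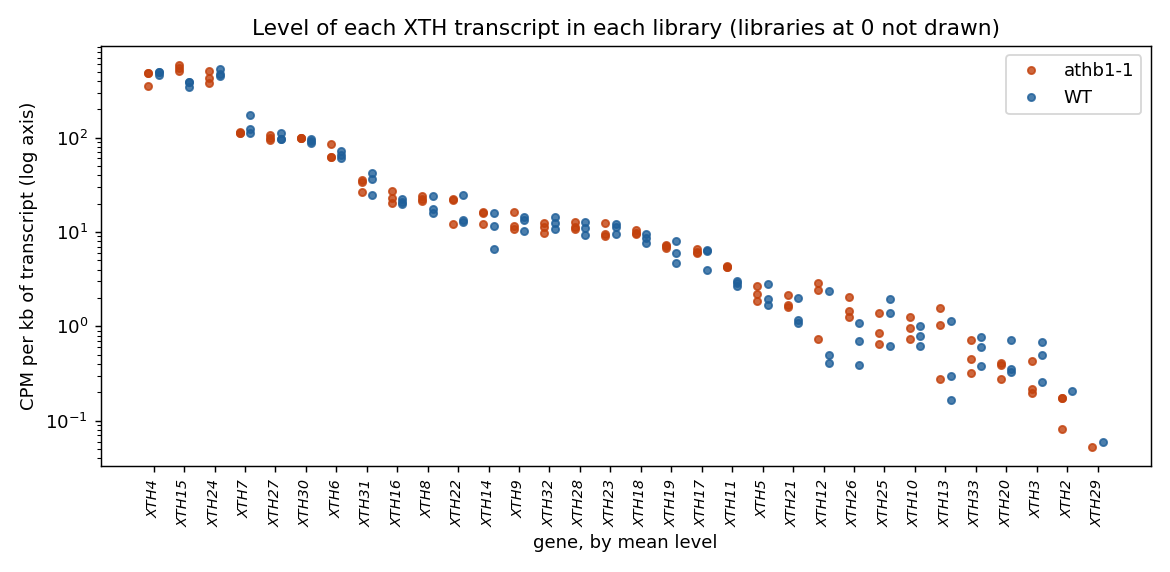
CPM per kilobase of transcript on a log axis for each XTH gene with any reads (libraries at 0 not drawn), ordered by mean level, with athb1-1 libraries (orange) left of WT libraries (blue) and 1 point per library. XTH4, XTH15 and XTH24 lie at 340 to 586, above all other members, and XTH15 is the only 1 of these 3 in which the genotypes separate.

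The summed level of the family overlapped between genotypes, while the share of XTH15 in it did not. The sum was 2840, 2765 and 2398 CPM in athb1-1, against 2615, 2663 and 2473 CPM in WT. XTH15 took 24.9, 23.8 and 25.5% of the family's counts in athb1-1, against 15.7, 17.6 and 18.8% in WT. XTH4 took 26.02, 26.96 and 22.69% in athb1-1, against 29.2, 28.7 and 28.6% in WT, but the total includes XTH15, so a larger share of XTH15 makes it smaller. As a share of the family without XTH15, computed after the first values were seen, XTH4 took 34.65, 35.36 and 30.47% in athb1-1, against 34.67, 34.88 and 35.25% in WT, and the genotypes overlapped. Without XTH15, the other 32 members summed to 2009 ± 193 CPM in athb1-1 and 2136 ± 111 CPM in WT (SD, n = 3 each).

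**Figure D2:**
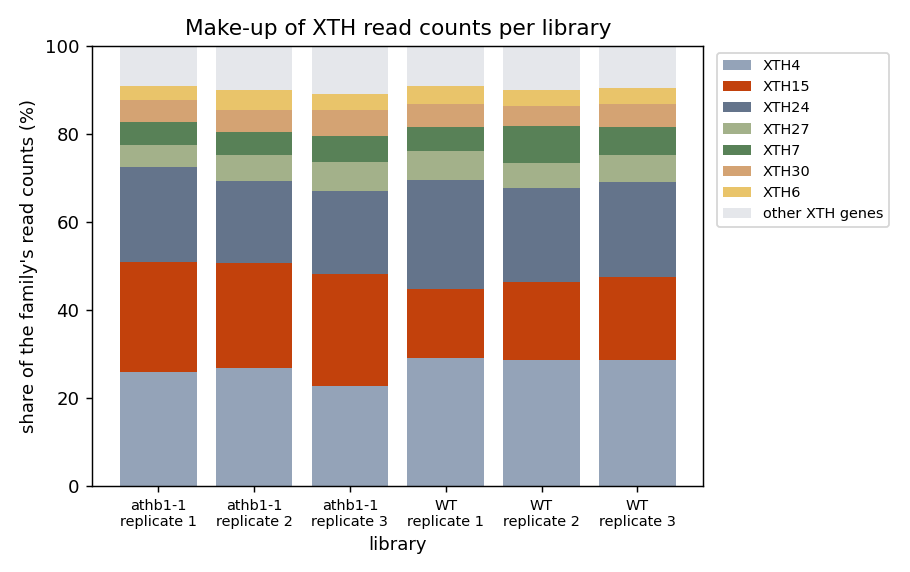
Share of all XTH read counts, in percent, taken by the 7 members with the most counts and by the other members together, in each athb1-1 library (left) and WT library (right). The XTH15 segment is 23.8 to 25.5% in athb1-1 and 15.7 to 18.8% in WT. The XTH4 segment is smaller in athb1-1 as a share of this total, which includes XTH15, and overlaps between genotypes once XTH15 is left out.

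Of the 33 members, 27 passed the filter on low counts and were tested. None passed a Benjamini-Hochberg adjusted p of 0.05 over all 18626 genes tested, a count of 0 in each direction by edgeR's quasi-likelihood test. Of all tested genes, 0.0215% were called higher and 0.0322% lower in athb1-1, 0.0537% in all. At an unadjusted p under 0.05, 3 members were higher, XTH15, XTH11 and XTH26, and 0 were lower, beside 2.9% and 2.34% of all tested genes (5.24% in either direction). In 5 members all athb1-1 libraries lay above all WT libraries, namely these 3 with XTH18 and XTH30, and in 0 members below, beside 5.86% and 5.49% of all tested genes. By the DESeq2 Wald test 1 member was called, XTH15, where 0.0644% of all tested genes were called higher, and XTH11, XTH15 and XTH26 again had an unadjusted p under 0.05, where 1.23% of all tested genes did so in that direction.

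Positive log2 fold changes (athb1-1 over WT) were found in 19 of the 27 tested members, beside 51.7% of all tested genes. The median log2 fold change of the members was 0.15, against 0.01 over all tested genes, and it was 0.061 without athb1-1 replicate 2 and 0.019 without WT replicate 3. By phylogenetic group, 6 of 8 tested members were positive in group I (XTH1 to XTH11, median 0.07), 11 of 14 in group II (XTH12 to XTH26, median 0.20) and 2 of 5 in group III (XTH27 to XTH33, median −0.02). No difference between these groups was tested.

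**Figure D3:**
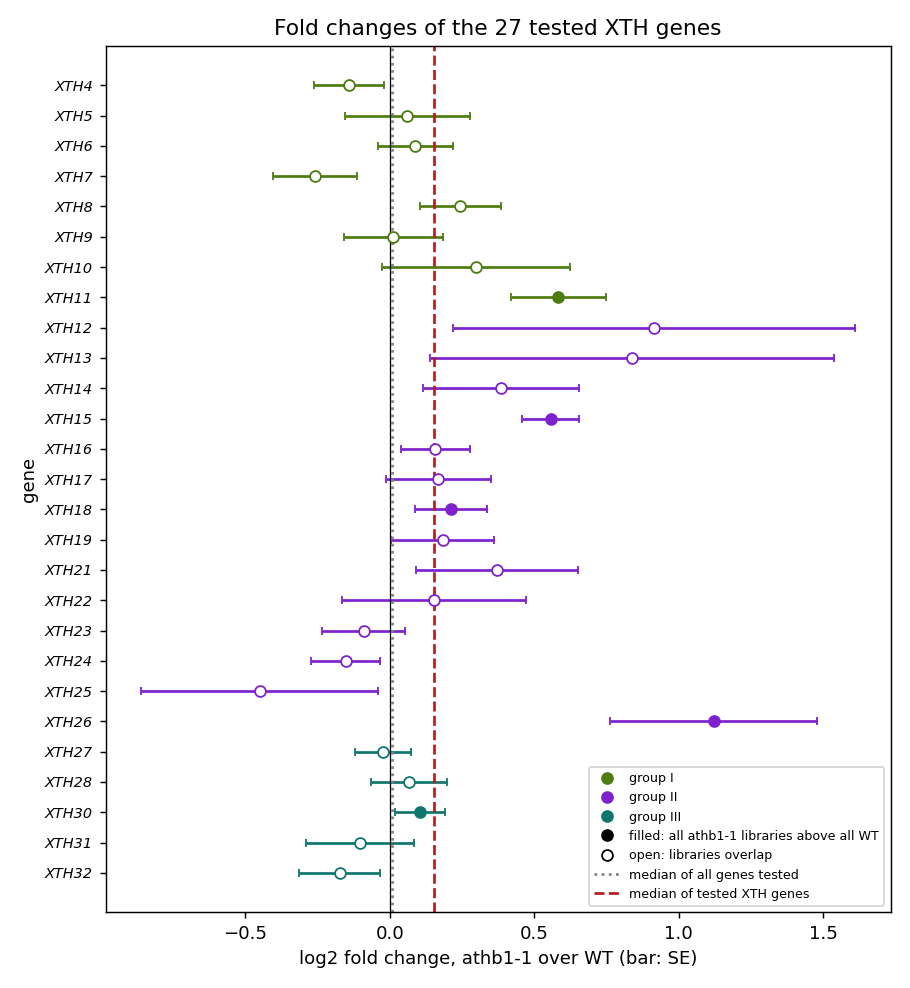
Log2 fold change (athb1-1 over WT) with its SE for each of the 27 tested XTH genes, coloured by phylogenetic group, with filled points where all athb1-1 libraries lie above all WT libraries. XTH11, XTH15, XTH18, XTH26 and XTH30 are filled, the dashed median of the members stands at 0.15 and the dotted median of all tested genes at 0.01.

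XTH15 (AT4G14130; TAIR10.1 chromosome 4, 8137020 to 8138392, minus strand), also known as XTR7, encodes a transglucosylase and is a well-known target of shade and of the growth-promoting PIF factors. Its level was 708, 657 and 613 CPM in athb1-1, against 410, 469 and 465 CPM in WT. Every mutant library was above every WT library, and the lowest mutant and highest WT libraries were clearly apart. The fold change was 1.47, a log2 fold change of 0.56 (SE 0.10). In edgeR's test the unadjusted p was 9.88e-05, rank 15 among 18626 genes, and the adjusted p was 0.123.

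Whether XTH15 passed depended on the fit. It passed without a filter on low counts (edgeR adjusted p 0.0207), by the DESeq2 Wald test (adjusted p 9.80e-04) and without WT replicate 2 (edgeR adjusted p 0.00120, or 0.00180 with a trend with transcript length removed as well). It did not pass in the other 12 of 16 alternatives, with adjusted p up to 0.889 without athb1-1 replicate 1. Its log2 fold change stayed between 0.49 and 0.61 in all 16. In the authors' deposited table, XTH15 had a log2 fold change of 0.56 (sign turned to athb1-1 over WT) and an adjusted p of 0.00112, the 1 XTH gene under 0.05 of 31 listed. That table called 48 of 22955 genes.

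The difference at XTH15 ran along the whole transcript. Its 3 exon bins had 218, 189 and 228 CPM in athb1-1, against 141, 131 and 159 CPM in WT (means, n = 3 each), ratios of 1.55, 1.45 and 1.43. Exon usage, the share of a gene's reads in each bin, was tested in 23 of the 33 members and passed in 0 of them, beside 0.00781% of 12808 genes (edgeR diffSpliceDGE). XTH10, XTH13, XTH25 and XTH26, tested for expression, were among the members without this test, and the smallest unadjusted Simes p of a member was 0.186, in XTH8. The 3′ end of XTH15 overlaps the opposite-strand gene AT4G14120 by 382 bases in TAIR10.1. That gene had 3 to 5 counts per library in athb1-1 and 0 to 4 in WT.

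XTH16 (AT3G23730), the closest copy of XTH15, stood at 27.94, 33.02 and 24.60 CPM in athb1-1, against 27.2, 23.9 and 25.5 CPM in WT. The genotypes overlapped, with a log2 fold change of 0.16 (SE 0.12) and an edgeR adjusted p of 0.962. The longest identical run of the pair was 26 bases. No test was made of whether the 2 copies differed in response.

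Other genes induced by PIF factors and shade were set beside XTH15. The 9 listed genes summed to 145, 156 and 151 CPM in athb1-1, against 135, 117 and 138 CPM in WT, and the genotypes did not overlap. None of the 9 was called by edgeR, and 3 were higher at an unadjusted p under 0.05, beside 2.9% of all tested genes. Of the 9 genes, 8 had a positive log2 fold change, beside 51.7% of all tested genes. In 5 all athb1-1 libraries lay above all WT libraries and in 1, ATHB4, below, beside 5.86% and 5.49% of all tested genes. ATHB2, an HD-Zip factor that shade induces, had a log2 fold change of 0.25 (SE 0.09), YUC8, an auxin synthesis enzyme, one of 0.37 (SE 0.14) and IAA29, an auxin response repressor, one of 0.35 (SE 0.14). Their part in the XTH15 difference was not tested.

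**Figure D4:**
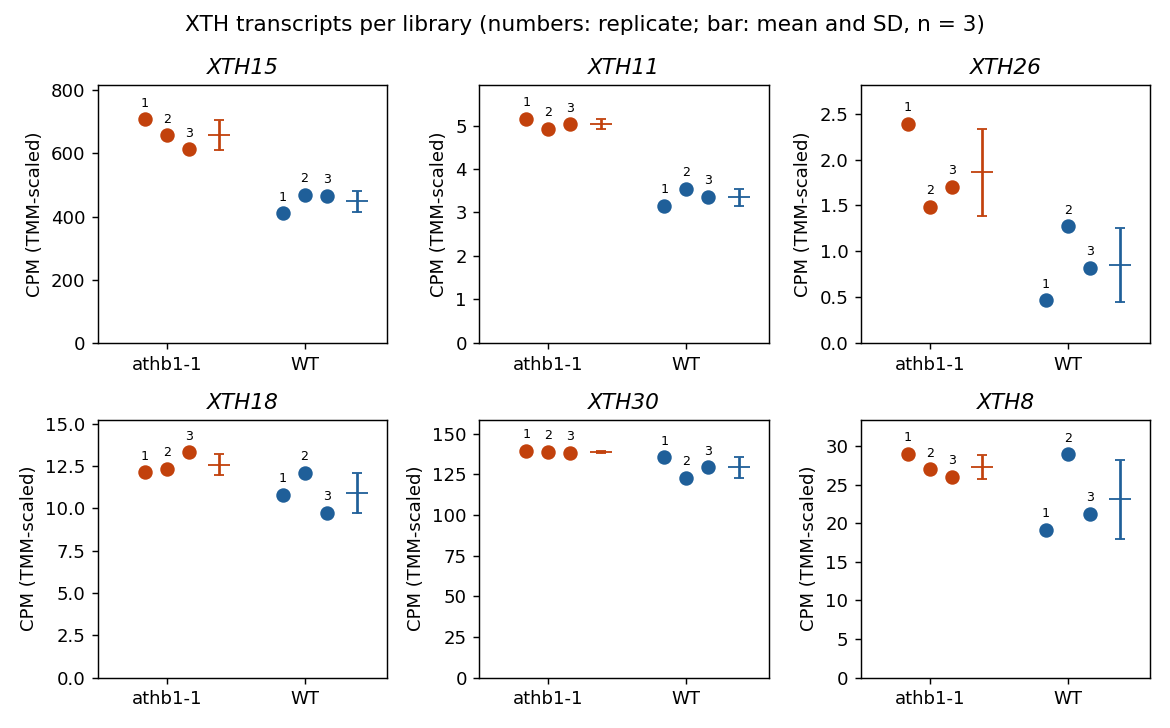
CPM in each library for the 5 XTH genes whose genotypes do not overlap and for XTH8, with athb1-1 left of WT, replicate numbers above the points and the mean and SD (n = 3) beside them. XTH15 reads 613 to 708 in athb1-1 and 410 to 469 in WT, while in XTH8 WT replicate 2 lies among the athb1-1 libraries.

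XTH11 (AT3G48580; chromosome 3, 18007098 to 18008535, plus strand) had little transcript and the tightest libraries of the 3 leading members. It was at 5.15, 4.92 and 5.03 CPM in athb1-1, against 3.16, 3.55 and 3.36 CPM in WT. The groups were separate, and each had an SD of under 0.2 CPM. The counts behind these values were 71, 63 and 65 in athb1-1 and 34, 39 and 41 in WT. Counting error alone allows a wider spread at such counts, so the small SD is no measure of precision. The log2 fold change was 0.58 (SE 0.16; edgeR unadjusted p 0.00371, adjusted p 0.658), and over the 16 alternatives it ran between 0.54 and 0.62, without a call. By the DESeq2 Wald test its SE was 0.26 and its unadjusted p 0.0266. The exon bin with the most reads, bin 6, had 43, 32 and 36 counts in athb1-1 and 13, 22 and 21 in WT, a ratio of mean CPM of 1.70. The ratios in bins 2, 3, 4 and 5 were 1.38, 0.929, 1.28 and 1.61, each from few counts. Bins 1 and 7 had 0 to 5 counts per library.

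XTH26 (AT4G28850; chromosome 4, 14244290 to 14246037, plus strand), an enzyme with known activity in root hairs, had the largest log2 fold change of the tested members at 1.12 (SE 0.36; edgeR unadjusted p 0.00857, adjusted p 0.855). It was at 2.39, 1.48 and 1.70 CPM in athb1-1, against 0.465, 1.27 and 0.819 CPM in WT. The groups did not overlap, but athb1-1 replicate 2 and WT replicate 2 were close. The counts were 33, 19 and 22 in athb1-1 and 5, 14 and 10 in WT, so counting error is a large part of the spread.

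XTH12, XTH13 and XTH14, transcripts known from roots, varied more between libraries than between genotypes. XTH14 had 18.7, 19.0 and 14.2 CPM in athb1-1, against 7.71, 18.6 and 13.3 CPM in WT. XTH12 had 3.34, 2.81 and 0.851 CPM in athb1-1, against 0.465, 2.73 and 0.573 CPM in WT. XTH13 had 1.16, 1.72 and 0.309 CPM in athb1-1, against 0.186, 1.27 and 0.328 CPM in WT. In all 3 genes WT replicate 2 lay with athb1-1 replicates 1 and 2, and athb1-1 replicate 3 was the lowest mutant library. Their log2 fold changes were 0.38 (SE 0.27), 0.91 (SE 0.70) and 0.84 (SE 0.70) for XTH14, XTH12 and XTH13.

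Root hair markers outside the family were also uneven within each genotype. The 10 listed genes, among them EXPA7, PRP3 and RSL4, summed to 160, 148 and 108 CPM in athb1-1, against 94.7, 152 and 95.6 CPM in WT. WT replicate 2 was again among the higher libraries. None of the 10 genes was at 0 in all libraries. Of them 9 had a positive log2 fold change, beside 51.7% of all tested genes, and 0 were called by edgeR. At an unadjusted p under 0.05, 1 (EXPA18) was higher, beside 2.9% of all tested genes, and 1 (RSL4) had all athb1-1 libraries above all WT libraries, beside 5.86%. Of the 13 general root genes 9 were tested, 6 of them positive, beside 51.7% of all tested genes. Their median log2 fold change was 0.03 and 0 were called by edgeR. At an unadjusted p under 0.05 by edgeR, 1 of these root genes was higher and 0 were lower, beside 2.9% and 2.34% of all tested genes. Without WT replicate 2, the log2 fold changes were 2.14 (SE 0.63) for XTH12, 1.98 (SE 0.71) for XTH13, 0.69 (SE 0.22) for XTH14 and 1.50 (SE 0.41) for XTH26, with edgeR adjusted p of 0.167, 0.203, 0.225 and 0.0772. The part of root hair RNA in these differences was not tested.

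**Figure D5:**
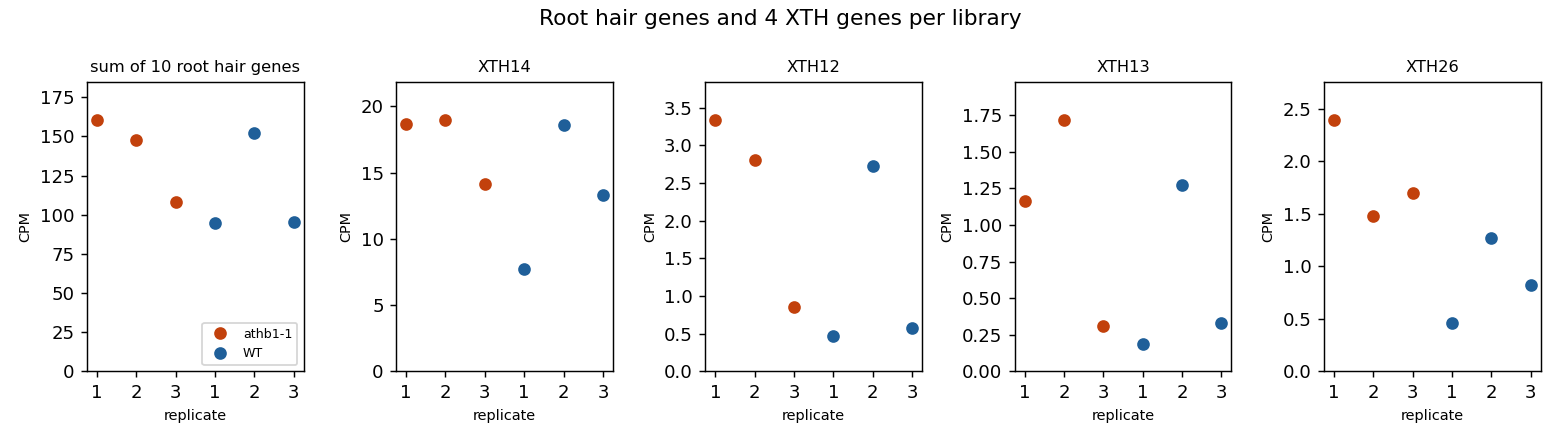
CPM by replicate for the sum of 10 root hair genes and for XTH14, XTH12, XTH13 and XTH26, with the 3 athb1-1 libraries left of the 3 WT libraries in each panel. In the marker sum, XTH12, XTH13 and XTH14, WT replicate 2 lies near athb1-1 replicates 1 and 2, and XTH26 has all athb1-1 libraries above WT.

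The related genes XTH17 to XTH21, which include XTH18 and XTH21 of primary root growth, held 1 member with non-overlapping genotypes. XTH18 (chromosome 4, 14825757 to 14827211, minus strand) was at 12.1, 12.3 and 13.3 CPM in athb1-1, against 10.8, 12.1 and 9.74 CPM in WT. Its groups did not overlap, but athb1-1 replicate 1 and WT replicate 2 were nearly equal. Its log2 fold change was 0.21 (SE 0.13; edgeR adjusted p 0.947). XTH19 was at 9.43 ± 0.373 CPM in athb1-1 and 8.34 ± 2.29 CPM in WT, and XTH17, a shade-responsive gene, at 7.58 ± 0.364 CPM in athb1-1 and 6.79 ± 1.70 CPM in WT (SD, n = 3 each). XTH21 was at 2.18 ± 0.346 CPM in athb1-1 and 1.69 ± 0.587 CPM in WT (SD, n = 3 each). In these 3 genes the genotypes overlapped, with log2 fold changes of 0.18 (SE 0.18), 0.17 (SE 0.18) and 0.37 (SE 0.28) for XTH19, XTH17 and XTH21.

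XTH22, the touch-induced gene TCH4, was among the least even members. It had 19.5, 35.7 and 35.0 CPM in athb1-1, against 39.6, 20.2 and 21.5 CPM in WT. Each genotype held high and low libraries, and the log2 fold change was 0.15 (SE 0.32). The 8 other touch-response genes listed, such as TCH2 and TCH3, summed to 110 to 121 CPM in athb1-1 and 115 to 120 CPM in WT. Of these, 7 were tested and 4 were positive, beside 51.7% of all tested genes, and 0 were called by edgeR. At an unadjusted p under 0.05, 0 were higher and 0 lower, beside 2.9% and 2.34% of all tested genes. In 1 of the 7, ZAT12, all athb1-1 libraries lay below all WT libraries, and in 0 above, beside 5.49% and 5.86% of all tested genes. MYB15, not tested and at 1 to 6 counts per library, had all athb1-1 libraries above. XTH23, the close copy of XTH22, was at 14.2 ± 2.44 CPM in athb1-1 and 15.1 ± 1.73 CPM in WT, and XTH25 at 1.14 ± 0.447 CPM in athb1-1 and 1.56 ± 0.800 CPM in WT (SD, n = 3 each). XTH25 had the most negative log2 fold change of the tested members, −0.45 (SE 0.41), with overlapping genotypes.

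The remaining tested members of group I overlapped between genotypes. XTH8 was at 29.02, 27.01 and 25.99 CPM in athb1-1, against 19.14, 28.93 and 21.21 CPM in WT, with a log2 fold change of 0.24 (SE 0.14; edgeR adjusted p 0.947). It passed without WT replicate 2 (log2 fold change 0.43, SE 0.11, edgeR adjusted p 0.0492) but not with the length trend removed as well (0.0875). XTH7 had a log2 fold change of −0.26 (SE 0.14), which was −0.0492 without WT replicate 2, −0.39 without WT replicate 1 and −0.33 without WT replicate 3. XTH4 was at −0.14 (SE 0.12), and XTH24 of group II at −0.15 (SE 0.12). XTH6 (0.09, SE 0.13), XTH5 (0.06, SE 0.22), XTH10 (0.30, SE 0.32) and XTH9 (0.01, SE 0.17), a gene of shoot apices, complete this group.

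Group III holds the members with known hydrolase activity, XTH31 and XTH32. XTH31 was at 47.24, 37.24 and 49.97 CPM in athb1-1, against 34.4, 50.6 and 59.2 CPM in WT, and XTH32 at 13.1, 15.5 and 16.8 CPM in athb1-1, against 16.9, 19.8 and 14.6 CPM in WT. Both overlapped, with log2 fold changes of −0.10 (SE 0.19) and −0.17 (SE 0.14). XTH30 (chromosome 1, 11575320 to 11578030, plus strand) was even, at 139.5, 138.8 and 138.2 CPM in athb1-1, against 135.4, 123.0 and 129.2 CPM in WT. Its groups did not overlap, yet the difference was small, with a log2 fold change of 0.10 (SE 0.09; edgeR adjusted p 0.971). XTH27 and XTH28, a gene of stamen filament growth, had log2 fold changes of −0.02 (SE 0.10) and 0.07 (SE 0.13).

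The 6 members below the filter had few reads. XTH1 had 0 counts in all libraries, where 3 counts, the limit that a count of 0 allows, would be 0.218 to 0.234 CPM in athb1-1 and 0.246 to 0.279 CPM in WT, for counting error only. Summed over libraries, XTH2 had 5 counts in athb1-1 and 2 in WT, and XTH29 had 1 in each. XTH3, an enzyme that also acts on cellulose, had 12 counts in athb1-1 and 18 in WT, XTH20 had 20 in athb1-1 and 22 in WT, and XTH33, a membrane-anchored member, had 24 in each. No difference was detectable at this depth.

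How many members had an unadjusted p under 0.05 moved most without WT replicate 2. Without it 10 of 28 tested members were higher by edgeR and 1, XTH25, was lower, beside 6.64% and 7.06% of all genes tested in that fit. The 10 were XTH8, XTH11 to XTH15, XTH18, XTH19, XTH21 and XTH26. Of these, XTH15 and XTH8 passed after adjustment, beside 0.376% of all genes called higher and 0.873% called in all. With the length trend removed as well, 8 members were higher and XTH25 lower, beside 5.75% and 6.09% of all genes, and 1, XTH15, passed after adjustment, beside 0.281% called higher and 0.561% in all. Other settings moved single members: XTH26 was no longer under 0.05 and XTH24 was lower without athb1-1 replicate 1, and XTH7 was lower without WT replicate 1 and with the length trend removed.

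No gene of the rest of the xyloglucan pathway passed the adjusted test. All 22 listed genes were tested and 0 were called by edgeR in either direction, with 12 positive and 10 negative log2 fold changes and a median of 0.01. At an unadjusted p under 0.05, 1 was higher and 2 were lower by edgeR, beside 2.9% and 2.34% of all tested genes. Leaving out 1 library gave 0 to 3 higher and 0 to 2 lower by edgeR. The 3 higher and 2 lower came without WT replicate 2, beside 6.64% and 7.06% of all genes tested in that fit. DESeq2 gave 0 in either direction, beside 1.23% higher and 1.47% lower of all tested genes. It called 0 of the pathway genes, beside 0.123% of all tested genes. In 4 of the 22 all athb1-1 libraries lay above all WT libraries and in 5 below, beside 5.86% and 5.49% of all tested genes. Among the 12 side chain enzymes, XXT1, a xylosyltransferase, was at 23.8, 23.3 and 22.3 CPM in athb1-1, against 28.5, 26.1 and 26.6 CPM in WT, a log2 fold change of −0.23 (SE 0.10). XUT1, a galacturonosyltransferase of root hairs, was at 4.50, 3.04 and 3.56 CPM in athb1-1, against 2.32, 2.82 and 2.46 CPM in WT, a log2 fold change of 0.55 (SE 0.21). Both had non-overlapping genotypes and an edgeR adjusted p of 0.939. Of the 5 glycosidases that trim the polymer, BGAL10, a galactosidase, was at 10.30, 10.15 and 8.66 CPM in athb1-1, against 11.9, 11.9 and 12.5 CPM in WT, with a log2 fold change of −0.32 (SE 0.12; edgeR adjusted p 0.939). The 5 backbone synthases of the CSLC family had a median log2 fold change of 0.03, with CSLC4, the most abundant, at 0.03 (SE 0.09).

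Promoters were searched from 250 bases before to 50 bases after each gene start for CAATNATTG and for CACGTG. CAATNATTG, with any base at N, is a pseudopalindrome of HD-Zip factors, and the search was not limited to sites of class I. CACGTG is the G-box of PIF and related factors. Both motifs read the same on both strands, and they do not overlap each other. CAATNATTG stood in 1 of 33 XTH promoters (3.03%) and in 1.07% of 27443 promoters of protein-coding genes. CACGTG stood in 0 of 33 and in 7.68% of all promoters. The 1 match was in XTH7, which starts 20 bases before the gene and is shown with the motif in capitals (chr4:17777446-17777480, minus strand).
XTH7: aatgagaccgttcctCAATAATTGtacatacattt
The 250 bases before XTH15 (chr4:8138393-8138642, minus strand), the member with the smallest p, hold neither motif and are given for reference.
XTH15: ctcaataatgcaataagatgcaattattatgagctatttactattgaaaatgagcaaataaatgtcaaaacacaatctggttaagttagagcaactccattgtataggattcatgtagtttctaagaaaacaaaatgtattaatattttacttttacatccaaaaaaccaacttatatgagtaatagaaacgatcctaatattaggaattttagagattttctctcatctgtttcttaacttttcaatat
A match is a description of letters only, and these windows say nothing about sites farther away.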

How the data were processed

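The authors deposited unscaled counts for genes and for exon bins. The submitters' processing notes name TAIR10 as genome build and TopHat2 2.0.8 and Bowtie2 2.1.0 as tools. Counting program, strand setting and annotation release are not stated in those notes, the labels or the headers. The authors' deposited table gives log2 fold changes (positive where WT is higher, turned here), p-values and adjusted p-values, with no tool named in the file headers. Its per-library signal columns, scaled by the authors, were not used.

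Counts of all genes were fitted with edgeR 4.0.16 in R 4.3.3 (TMM, filterByExpr, robust quasi-likelihood F-test, genotype as the only term), with Benjamini-Hochberg adjustment. DESeq2 1.42.0 was an alternative. SE is the log2 fold change over the square root of F, and CPM are TMM-scaled. P-values set the difference between genotypes against the spread between libraries of the same genotype. For each gene the fit draws that spread toward a trend over all genes, so it is not the gene's own spread alone. ATHB1 was tested on exon bins summed per locus, since its gene count was 0 throughout. Exon usage was tested with diffSpliceDGE. The fits were tested on simulated counts.

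Positions, transcript lengths and sequences are those of TAIR10.1, whose models held 32835 of the 33602 identifiers. Coding sequences were aligned globally with Biopython 1.88. A planned protein comparison was made on coding sequences instead.

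All 33 members are accounted for. Values per library go to members with an unadjusted p under 0.05 or with genotypes that do not overlap, to the 5 with the highest level per kilobase, and to others beside them, and the xyloglucan pathway is represented by its 3 smallest p. XTH8, XTH12 to XTH14, XTH16, XTH22, XTH31 and XTH32, CSLC4 and the PIF-induced genes were given values after these had been seen. The members and lists were chosen with earlier results of these data known.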

Additional observations from a re-analysis of the deposited data

How the results depend on the processing

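Over 16 alternatives, the log2 fold changes of the 27 tested members gave values of which 412 kept direction and side of the threshold, 15 had the opposite sign and 5 newly passed. In the main edgeR fit, with the filter and 6 libraries, 0 members were called. The same held with another scaling, a stricter filter, a non-robust fit, exon bins or the length trend removed. In each of 3 other settings 1 member was called: edgeR without a filter, DESeq2, and edgeR with the length trend removed and WT replicate 2 left out. Leaving out 1 library gave 0 to 2 members. Over all genes 10 were called, 19 without a filter, 23 by DESeq2, 106 with the length trend removed and WT replicate 2 left out, and 8 to 165 with 1 library left out. The cause was not tested. Opposite signs came from leaving out 1 library, with ranges of −0.0811 to 0.28 for XTH5, −0.0858 to 0.17 for XTH6, −0.19 to 0.12 for XTH9, −0.0347 to 0.28 for XTH17, −0.0214 to 0.53 for XTH22 (−0.0372 with the length trend removed and WT replicate 2 left out), −0.0814 to 0.0439 for XTH27, −0.0412 to 0.18 for XTH28 and −0.30 to 0.0765 for XTH31. The median of the members was 0.0974 without a filter. None of the members named here with opposite signs was called in any alternative. The pathway count stayed at 0 in all 16, and the ATHB1 locus (−5.61 to −5.48 with 1 library left out) and the count of 0 for exon usage kept their calls.

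With the replicate number as a block, 0 XTH members and 12 genes in all were called. Deviations of same-numbered libraries correlated at −0.0548, 0.21 and 0.11, and those of differently numbered libraries at −0.21 to 0.16. These values do not settle whether the numbers mark pairs, and the main fit did not take them as pairs. With the block, the SE fell from 0.70 to 0.44 in XTH12 and from 0.70 to 0.46 in XTH13. With 3 libraries per genotype and under 100 counts per library in XTH5, XTH10 to XTH13, XTH21, XTH25 and XTH26, depth limits what can be told of the low members.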
